A study of Mus musculus with 3 samples.

Results

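The 3 wells named basal were compared with the 4 wells named MEF on the plate of compound rack SA00129416. They were chosen by their names alone and are 7 of the 274 well columns in the deposited count table. All 7 held wild-type mouse embryonic fibroblasts, which are primary connective tissue cells cultured from embryos. The plate is labelled for cells kept 4 days in a medium called CFAE+8 with compounds, but the basal and MEF wells are named for no compound. The sources used here do not give the contents of basal medium, the medium of the MEF wells or the time either was kept. The comparison asks how RNA levels differed between wells of these names. RNA was measured by DRUG-seq2, in which each well's RNA gets a barcode during reverse transcription and the plate is then pooled and sequenced together.

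Fibroblasts switch between making and burning lipids with their supply. Fatty acids that enter the cell activate the PPAR receptors, which switch on genes for fatty acid transport, storage in droplets and oxidation in mitochondria. SREBP factors switch on genes for making fatty acids and sterols when lipids run short. Fibroblasts also answer inflammatory signals through NF-kappaB and C/EBP factors, with secreted acute phase proteins and chemokines, and they build the matrix of collagens and proteoglycans around them.

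The basal wells had total counts of 354766, 340571 and 315416. MEF 1, 2, 3 and 4 had totals of 447141, 351818, 138747 and 278827. The totals of the groups overlapped, and their mean log2 totals differed by 0.27 (two-sided exact permutation test p = 0.743, where the smallest possible p is 0.0571). MEF 3 stood apart in more than its total. Its mitochondrial share was 1.43% of counts against 0.653% to 0.790% in the other 6 wells, and its share of ribosomal protein RNA was 14.2% against 19.8% to 21.6%. Its correlation with other MEF wells across genes (Pearson r of log2(CPM + 1), where CPM is the count scaled to the well's total, in counts per 1e+06) was 0.791 to 0.816, against 0.896 to 0.920 among MEF 1, 2 and 4 and 0.905 to 0.915 among basal wells. Calls are therefore given with and without MEF 3, and a value given alone is from the fit with all wells unless stated otherwise. The labels do not say whether the wells came from separate cultures or embryos, so the p-values measure only the spread between wells of this plate. For the gene tests that spread was estimated from all 30 wells named for a medium, not from these 7 wells alone.

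The fibroblast label held in every well. All 12 fibroblast markers were measured, with a summed level of 6041 to 6689 CPM in basal wells, 6694 to 7689 CPM in MEF 1, 2 and 4, and 8649 CPM in MEF 3. The pan-leukocyte gene Ptprc, the endothelial receptor Kdr, the epithelial adhesion gene Epcam and the adipocyte droplet gene Plin1 were at 0 in all 7 wells. Only 3 of 12 endothelial and 6 of 14 epithelial markers were at 0 throughout. Endothelial markers summed to 116 to 149 CPM in basal wells, 86.1 to 108 CPM in MEF 1, 2 and 4 and 137 CPM in MEF 3. For epithelial markers the sums were 28.5 to 82.2, 40.3 to 93.2 and 28.8 CPM. Macrophage markers summed to 164 to 352 CPM in basal wells, 212 to 259 CPM in MEF 1, 2 and 4 and 404 CPM in MEF 3. Adipocyte markers summed to 184 to 320 CPM in basal wells, 100.4 to 122 CPM in MEF 1, 2 and 4 and 202 CPM in MEF 3. In bulk wells, fewer cells of a type and less RNA per cell cannot be told apart.

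With all wells, 26 genes were higher in basal wells and 22 were lower at an adjusted p under 0.05 in edgeR's quasi-likelihood test with Benjamini-Hochberg adjustment. These were 0.372% and 0.315% of 6985 genes tested, or 0.687% in either direction. Scaled by library totals alone instead of by trimmed means, 21 genes were higher and 27 lower. Without MEF 3, 35 genes were higher and 25 lower (0.505% and 0.361% of 6926, or 0.866% in all). The fits shared 41 genes, all with the same sign, which are 85.4% of the first set and 68.3% of the second. Leaving out MEF 3 lost 7 calls and gained 19, of which 13 were higher in basal. The median log2 fold change over all genes tested, which trimmed mean scaling centres near 0, was -0.0033 with all wells and -0.0061 without MEF 3 (-0.047 and -0.021 by library totals alone).

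**Figure D1:**
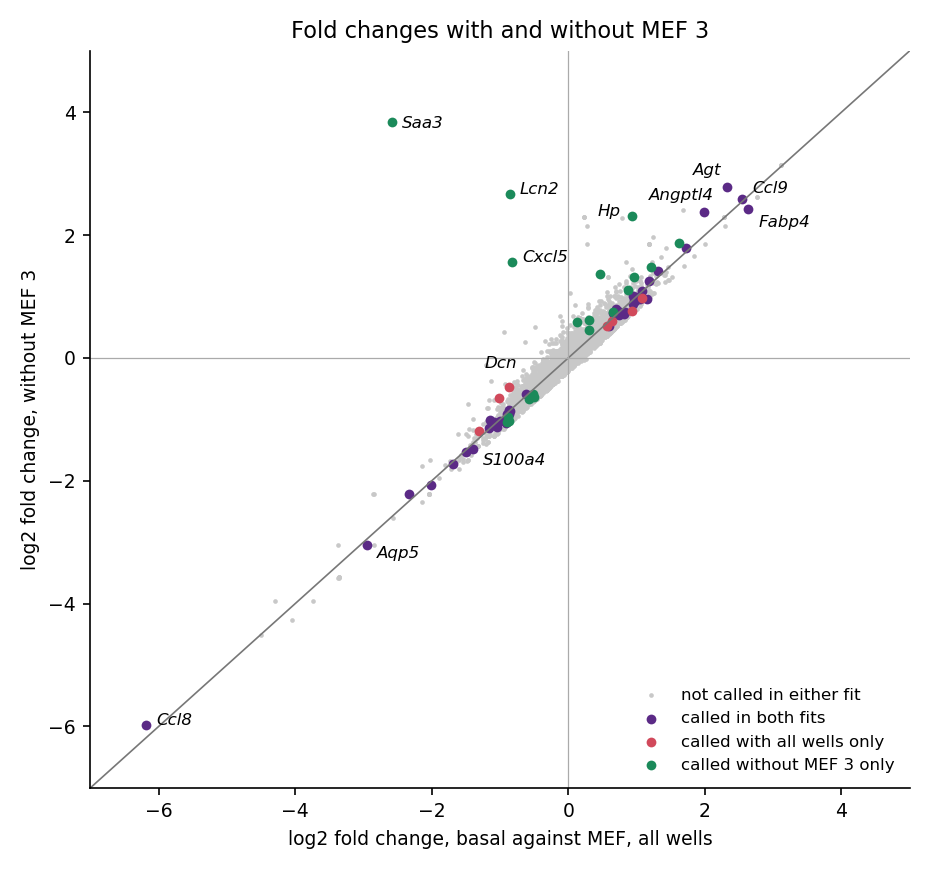
Each point is a gene, placed by its log2 fold change (basal against MEF) with all wells on the horizontal axis and without MEF 3 on the vertical axis; colours mark the fits that called it, and the grey diagonal marks equal values. Most called genes lie near the diagonal, while Saa3, Lcn2 and Cxcl5 move from negative to positive when MEF 3 is left out.

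Genes of fatty acid uptake, storage and oxidation were higher in basal wells. Of 29 measured members of a list of fatty acid oxidation genes and PPAR targets, 7 rose and 0 fell with all wells, and 6 rose and 0 fell without MEF 3. The list's median log2 fold change was 0.46 with all wells and 0.39 without MEF 3, and 23 of the 29 values were above 0 in both fits. In 8 of the 29 genes every basal well was above every MEF well, and in 1 every basal well was below, against 3.58% and 5.53% of all genes tested. Without MEF 3 the same counts were 8 and 1, against 6.57% and 8.14% of all genes tested.

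Angptl4 (chr17:33773750-33781830, minus strand, mm10), a secreted inhibitor of lipoprotein lipase, stood at 1169.8, 1119 and 1249 CPM in basal 1, 2 and 3 and at 224, 222, 721 and 244 CPM in MEF 1, 2, 3 and 4. The groups did not overlap, but MEF 3 lay between the basal wells and the other MEF wells. Its log2 fold change was 1.98 ± 0.18 (SE; edgeR adjusted p = 3.5e-12), and 2.38 ± 0.14 without MEF 3 (edgeR adjusted p = 7.7e-23). Cpt1a (chr19:3322334-3385733, plus strand), which links long-chain fatty acids to carnitine for import into mitochondria, had 186, 217 and 168 CPM in basal wells against 67.1, 73.9, 123 and 78.9 CPM in MEF wells. Every basal well was above every MEF well, and the log2 fold change was 1.31 ± 0.19 with all wells and 1.41 ± 0.20 without MEF 3.

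Plin2 (chr4:86648386-86670060, minus strand), which coats lipid droplets, had 344, 344 and 327 CPM in basal wells and 206, 153, 123 and 161 CPM in MEF wells. The groups were again separate, with a log2 fold change of 1.05 ± 0.15 (0.96 ± 0.16 without MEF 3). The wells named nocell held 8 and 72 counts of Plin2, against a median of 92 counts over the 7 wells, and the part of such counts in the difference was not tested. Fabp4 (chr3:10204088-10208576, minus strand), a cytosolic fatty acid carrier, had 53.6, 82.2 and 60.2 CPM in basal wells and 15.7, 8.53, 0 and 10.8 CPM in MEF wells. Its lowest basal well was above the highest MEF well, and it rose by 2.63 ± 0.45 on the log2 scale (2.43 ± 0.45 without MEF 3). Fabp4 also marks adipocytes, and other adipocyte markers were mixed. The adipocyte factor Cebpa had 14.1, 32.3 and 22.2 CPM in basal wells and 6.71 to 8.53 CPM in MEF wells, too few counts to be tested. The adipocyte hormone Adipoq had 4 counts in basal 2 and 0 in the other wells, the receptor Pparg was at 0 to 2.94 CPM in basal wells and 0 to 5.68 CPM in MEF wells, and the droplet gene Plin1 was at 0 in all wells. The part of such cells in the rise of the fatty acid genes was not tested.

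The enoyl-CoA isomerase family member Ech1, an enzyme for unsaturated fatty acids, had 648, 672 and 799 CPM in basal wells against 344, 455, 541 and 473 CPM in MEF wells. It rose by 0.73 ± 0.13 on the log2 scale, or 0.77 ± 0.13 without MEF 3, with no overlap of the groups. The mitochondrial thioesterase Acot2, which frees fatty acids from coenzyme A, rose by 1.18 ± 0.29 (1.24 ± 0.30 without MEF 3), from 17.9 to 50.5 CPM in MEF wells to 55.8 to 87.4 CPM in basal wells. Etfb, a subunit of the flavoprotein that passes electrons from fatty acid oxidation to the respiratory chain, rose by 0.57 ± 0.14 with all wells (edgeR adjusted p = 0.0302), but had 0.51 ± 0.14 and an adjusted p of 0.0552 without MEF 3. Among members that did not pass, the thiolase Acaa2 had 0.59 ± 0.17 (0.54 without MEF 3), the lipoprotein lipase gene Lpl 0.46 ± 0.23 (0.63) and the uncoupling protein gene Ucp2 0.48 ± 0.19 (0.52), while Fabp3 (-0.33) and Eci1 (-0.42) had values below 0.

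**Figure D2:**
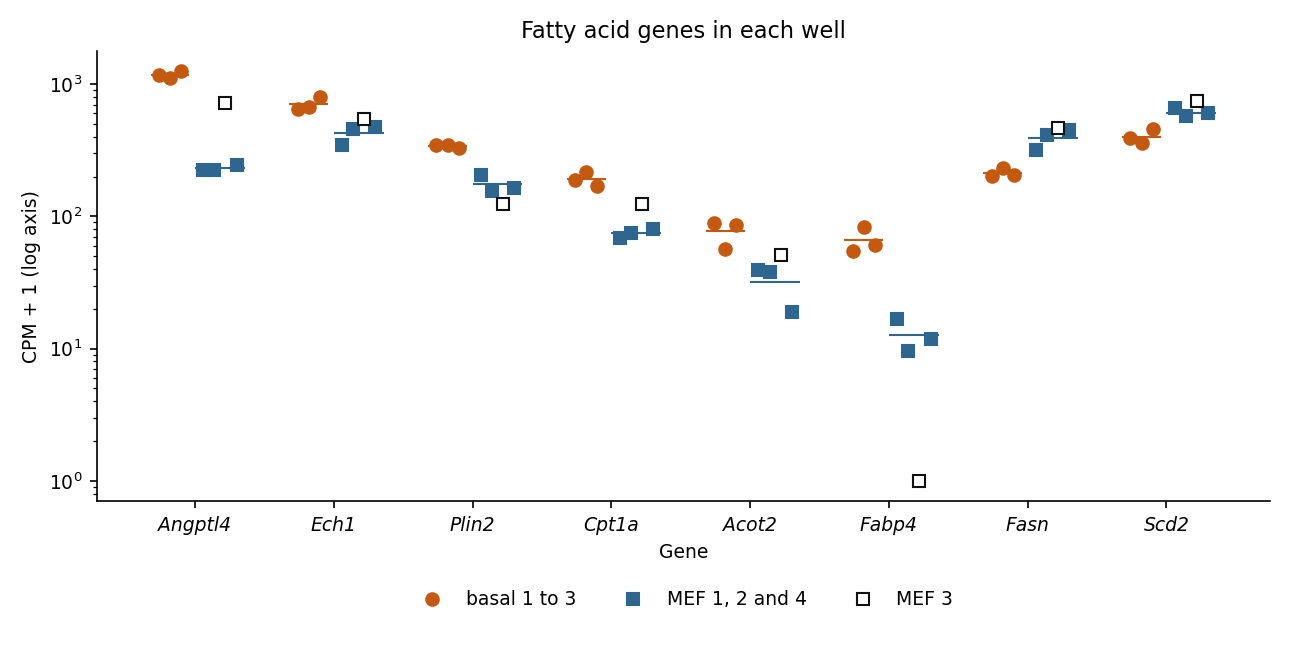
CPM + 1 on a log axis for 8 fatty acid genes, with basal wells as circles, MEF 1, 2 and 4 as filled squares and MEF 3 as an open square; short lines are the means of the 3 basal wells and of MEF 1, 2 and 4. The first 6 genes are higher in every basal well than in every MEF well, and Fasn and Scd2 are lower.

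Genes of fatty acid synthesis showed the opposite sign. Of 12 measured members, 2 fell and 0 rose in both fits, with a list median of -0.44 (-0.42 without MEF 3). Fasn (chr11:120805846-120824547, minus strand), the fatty acid synthase, had 200.1, 229 and 206 CPM in basal wells and 318, 409, 468 and 445 CPM in MEF wells. Every basal well was below every MEF well, and Fasn fell by 0.87 ± 0.16 on the log2 scale (-0.85 ± 0.16 without MEF 3). Scd2, a desaturase that makes monounsaturated fatty acids, had 389, 358 and 453 CPM against 653, 568, 749.6 and 603 CPM and fell by 0.62 ± 0.13 (-0.59 ± 0.13 without MEF 3). Acly, which supplies cytosolic acetyl-CoA, had a value of -0.27 ± 0.18 and did not pass.

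No cholesterol synthesis gene was called by edgeR, DESeq2 or limma's voom. In each fit 7 had an unadjusted edgeR p under 0.05, against 664 of 6985 genes tested with all wells and 652 of 6926 without MEF 3. Most values of the list lay below 0. Of 21 measured members, 19 were negative with all wells, with a median of -0.38. In 4 of the 21 every basal well was below every MEF well, against 5.53% of all genes tested. Without MEF 3, 18 of 20 were negative, with a median of -0.40. In 6 of these 20 every basal well was below every remaining MEF well, against 8.14% of all genes tested in that fit. Fdps, which makes farnesyl diphosphate, had 319, 361 and 399 CPM in basal wells and 485, 418, 454 and 567 CPM in MEF wells. These groups did not overlap, but its value of -0.38 ± 0.13 did not pass (edgeR adjusted p = 0.256, and 0.147 without MEF 3).

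Glucose and redox genes gave few calls. Txnip, a glucose-induced inhibitor of thioredoxin, had 180.4, 199.7 and 143 CPM in basal wells against 112, 96.6, 93.7 and 57.4 CPM in MEF wells, and rose by 0.97 ± 0.21 (0.94 ± 0.21 without MEF 3). Exons of Txnip overlap those of Gm15441, so the counts of these genes may not be separate. It was the only called gene of 19 on the glycolysis list with all wells. Without MEF 3 the list had 3 calls, all higher, with the lactate exporter Slc16a3 (1.32 ± 0.24) and the triose phosphate isomerase Tpi1 (0.46 ± 0.12) added. Slc16a3 had 109.9, 167 and 117 CPM in basal wells, 42.5, 73.9 and 43.0 CPM in MEF 1, 2 and 4, and 180.2 CPM in MEF 3, above every basal well. Tpi1 behaved alike, with 1211 CPM in MEF 3 and 674 to 713 CPM in the other MEF wells. The secreted peroxidase Gpx3 rose by 0.60 ± 0.14 (0.51 ± 0.13 without MEF 3), and was 1 of 24 oxidative stress genes called. The metallothionein Mt2 joined it without MEF 3 at 0.58 ± 0.14, while its neighbour gene Mt1 had 0.49 ± 0.16 and did not pass in either fit. In both fits the Gpx3 call was lost when basal 1, 2 or 3 or MEF 1 or 4 was left out. Outside the list, the secreted superoxide dismutase Sod3 was called lower with all wells, but not without MEF 3.

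Several genes of the chemokine list, which also holds the chemoattractant gene Rarres2, were higher in basal wells and Ccl8 was lower. Of 9 measured, 3 rose and 1 fell with all wells, and 4 rose and 1 fell without MEF 3. The list's median was -0.11 with all wells and 1.01 without MEF 3. Ccl9 (chr11:83572919-83578636, minus strand), a ligand of the receptor CCR1 on myeloid cells, had 107, 112 and 149 CPM in basal wells and 31.3, 11.4, 28.8 and 14.3 CPM in MEF wells. The lowest basal well was far above the highest MEF well, and Ccl9 rose by 2.54 ± 0.32 on the log2 scale (edgeR adjusted p = 1.5e-07), or 2.59 ± 0.33 without MEF 3.

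Rarres2 (chr6:48569696-48572789, minus strand), which encodes the chemoattractant chemerin, had 321, 411 and 311 CPM against 80.5, 136, 151 and 89.7 CPM. It rose by 1.73 ± 0.17 and by 1.79 ± 0.18 without MEF 3 (edgeR adjusted p = 1.2e-10 and 4.0e-12), although its exons overlap those of Lrrc61. Cxcl12 (chr6:117168535-117181367, plus strand), the ligand that holds stem and immune cells in their niches, had 654, 573 and 761 CPM against 365, 338, 468 and 279.7 CPM. MEF 3 was the highest MEF well for both genes, and still below every basal well. Cxcl12 rose by 0.95 ± 0.14 (1.01 ± 0.13 without MEF 3).

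Ccl8, a monocyte chemoattractant, went the other way on very few counts. It had 0 counts in all basal wells and 17.9, 11.4, 43.2 and 17.9 CPM in MEF wells, which are 8, 4, 6 and 5 counts. Against a floor of 3 counts over the basal wells it was at least 6.37-fold lower in basal with all wells (edgeR adjusted p = 0.0232) and at least 5.31-fold lower without MEF 3. The call was lost when basal 1, 2 or 3 was left out and with robust spread (highest adjusted p = 0.117), and without MEF 3 also with voom or when MEF 1 or MEF 4 was left out. The wells named nocell held 4 and 28 counts of Ccl8, the latter more than any MEF well, and the part of such counts in the difference was not tested. The chemokine Cxcl14 had -0.64 ± 0.20 and did not pass.

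Acute phase genes depended on MEF 3. Of 27 measured members of a list of acute phase, complement and NF-kappaB genes, 2 rose and 1 fell with all wells (median 0.04, or -0.01 when scaled by library totals alone). Without MEF 3, 6 rose and 1 fell (median 0.47). In 10 of 27 every basal well was above MEF 1, 2 and 4, and in 2 every basal well was below them. Over all genes tested without MEF 3 these shares were 6.57% and 8.14%. The mean log2(CPM + 1) of this list was 7.47 in MEF 3 and 5.15 to 5.55 in the other MEF wells, while that of the fatty acid oxidation list was 5.70 in MEF 3 and 5.61 to 5.66 in the others.

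Saa3 (chr7:46711998-46715700, minus strand), a serum amyloid A protein, had 217, 385 and 644 CPM in basal wells, 40.3, 31.3 and 7.17 CPM in MEF 1, 2 and 4, and 12188 CPM in MEF 3. The basal wells lay above the 3 other MEF wells and far below MEF 3. The log2 fold change was -2.59 ± 0.74 with all wells (edgeR adjusted p = 0.0868) and 3.84 ± 0.29 without MEF 3 (edgeR adjusted p = 1.5e-17). Lcn2 (chr2:32384633-32388252, minus strand), a siderophore-binding lipocalin, had the same order, with 109.9, 173 and 159 CPM in basal wells, 17.9, 34.1 and 17.9 CPM in MEF 1, 2 and 4, and 1650.5 CPM in MEF 3. Its log2 fold change went from -0.86 ± 0.66 to 2.66 ± 0.31 without MEF 3.

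The neutrophil chemokine Cxcl5 had 257, 467 and 444 CPM in basal wells, 116, 162 and 118 CPM in MEF 1, 2 and 4, and 3474 CPM in MEF 3. Its value changed sign as well, from -0.83 ± 0.47 to 1.57 ± 0.18 without MEF 3. The protease inhibitor Serpina3g had 347, 461 and 479 CPM in basal wells and 159 to 183 CPM in MEF 1, 2 and 4, with 1168 CPM in MEF 3, and its value went from 0.46 ± 0.28 to 1.36 ± 0.17. Haptoglobin (Hp), which binds free haemoglobin, had 70.5, 52.9 and 41.2 CPM in basal wells, 8.95, 19.9 and 3.59 CPM in MEF 1, 2 and 4 and 159 CPM in MEF 3 (0.93 ± 0.51, and 2.30 ± 0.48 without MEF 3). These 5 genes were not called with all wells and rose without MEF 3.

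Calls on this list that stood with all wells were fewer. Angiotensinogen (Agt) had 31.0, 61.7 and 44.4 CPM in basal wells and 4.47, 14.2, 28.8 and 0 CPM in MEF wells, and rose by 2.32 ± 0.52 (2.78 ± 0.56 without MEF 3). The groups were separate by a small margin at MEF 3. Tnfaip2, a TNF-induced gene, rose by 0.70 ± 0.18 (0.79 ± 0.18 without MEF 3), although MEF 3 and basal 2 both stood at 267 CPM. Il1rl1, the receptor for interleukin 33, had 95.8, 96.9 and 60.2 CPM against 143, 165, 324 and 222 CPM, and fell by 1.15 ± 0.22, and was also called lower without MEF 3 (edgeR adjusted p = 0.004). Outside the list, Il6st, the signalling chain shared by receptors of the interleukin 6 family, rose by 0.65 ± 0.15 (0.74 ± 0.15 without MEF 3), with basal 3 at 827 CPM and the other basal wells at 485 and 426 CPM, below MEF 3 at 541 CPM.

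**Figure D3:**
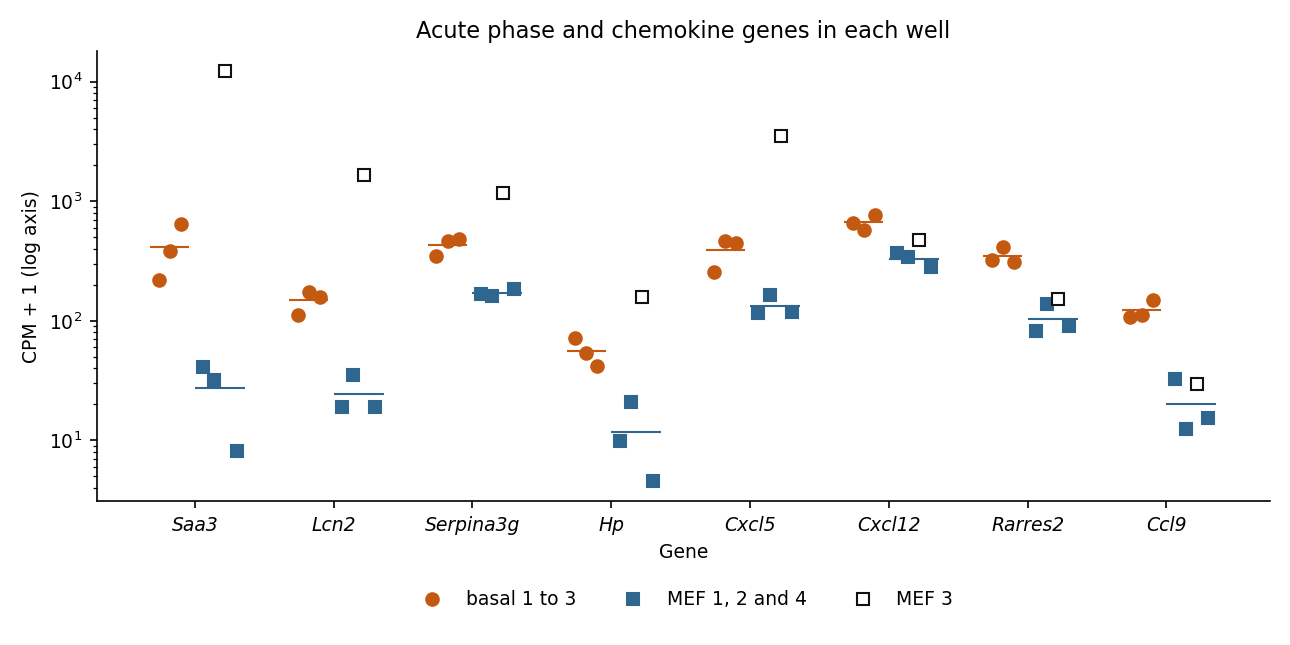
CPM + 1 on a log axis for 4 acute phase genes and 4 genes of the chemokine list, with basal wells as circles, MEF 1, 2 and 4 as filled squares and MEF 3 as an open square; lines are means of the basal wells and of MEF 1, 2 and 4. MEF 3 is above all other wells for Saa3, Lcn2, Serpina3g, Hp and Cxcl5 and among the other MEF wells or close above them for Cxcl12, Rarres2 and Ccl9.

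The sequences before the start sites of 3 of these genes are shown because they carry a match to an NF-kappaB or C/EBP motif and because the genes differ in how they stood in MEF 3. They were chosen after their values were seen. Each is the 250 bases before the RefSeq start on GRCm38.p6, 5′ to 3′ on the gene's strand, with the match in capitals. Saa3 (chr7:46715677-46715926, minus strand) has a C/EBP match that begins 99 bases before the start, Serpina3g (chr12:104235897-104236146, plus strand) an NF-kappaB match 85 bases before it and Ccl9 (chr11:83578637-83578886, minus strand) an NF-kappaB match 35 bases before it.
Saa3: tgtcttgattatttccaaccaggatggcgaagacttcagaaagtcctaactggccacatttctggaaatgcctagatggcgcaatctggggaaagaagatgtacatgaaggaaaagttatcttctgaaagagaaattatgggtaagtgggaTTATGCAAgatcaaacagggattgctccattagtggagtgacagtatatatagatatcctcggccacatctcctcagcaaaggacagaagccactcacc
Serpina3g: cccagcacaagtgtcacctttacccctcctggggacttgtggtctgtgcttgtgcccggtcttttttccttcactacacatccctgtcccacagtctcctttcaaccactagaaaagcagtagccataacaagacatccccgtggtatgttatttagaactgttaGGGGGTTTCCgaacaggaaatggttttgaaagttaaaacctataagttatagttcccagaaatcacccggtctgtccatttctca
Ccl9: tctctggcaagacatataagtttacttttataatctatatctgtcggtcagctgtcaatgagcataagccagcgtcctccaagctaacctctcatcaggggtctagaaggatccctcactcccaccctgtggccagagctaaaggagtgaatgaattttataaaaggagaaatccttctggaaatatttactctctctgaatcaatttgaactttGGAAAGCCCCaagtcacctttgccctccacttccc

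The motifs searched on both strands were GGG and TTTCC with any 2 bases between them for NF-kappaB, and TTNNGCAA for C/EBP. The first occurred in 464 of 32851 RefSeq promoter windows of this length (1.41%) and the second in 3142 (9.56%). Of 70 genes on the chemokine and acute phase lists, 48 had a promoter in the table, with 56 windows, of which 12 held the NF-kappaB letters (21.4%) and 15 the C/EBP letters (26.8%). The PPAR letters, AGGNCA repeated with any 1 base between the copies, occurred in 111 windows (0.338%), and in 0 of the 44 windows of 37 genes on the fatty acid oxidation list. The PPAR letters are so rare that 0 in 44 windows says nothing of that list. The acute phase list was drawn up to hold NF-kappaB genes, so its share of NF-kappaB letters is not independent of that choice. A match is a string of letters and says nothing of binding in these wells.

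Fibroblast and matrix genes had fewer calls, mostly lower in basal wells. Of 23 fibroblast identity genes measured, 1 fell and 0 rose with all wells and 2 fell without MEF 3. S100a4 (chr3:90603771-90606045, plus strand), a calcium-binding protein often used as a fibroblast marker, had 1373, 1242 and 1195 CPM in basal wells and 3048, 2774, 2998 and 5010.3 CPM in MEF wells. All MEF wells were above every basal well, with MEF 4 the highest, and S100a4 fell by 1.40 ± 0.17 on the log2 scale (edgeR adjusted p = 1.3e-07), with -1.49 ± 0.16 without MEF 3. Its exons overlap those of Gm42674. Ly6a, the surface protein Sca-1, had 2128, 2044 and 1718 CPM against 3366, 2317, 2198 and 3612 CPM, and fell by 0.64 ± 0.12 without MEF 3 (-0.51 ± 0.14 and adjusted p = 0.0593 with all wells). Vimentin (Vim, -0.19 ± 0.13 without MEF 3) and the surface marker Thy1 (0.04 ± 0.16) did not pass in either fit.

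Of 48 other matrix genes and matrix enzymes, 3 fell and 0 rose with all wells, and 1 rose and 2 fell without MEF 3. Dermatopontin (Dpt), a small matrix protein that binds decorin, had 53.6, 32.3 and 66.6 CPM in basal wells and 107, 125, 137 and 108 CPM in MEF wells, and fell by 1.16 ± 0.24 (-1.15 ± 0.25 without MEF 3). Timp3, an inhibitor of metalloproteinases bound to the matrix, fell by 0.86 ± 0.17 (-0.87 ± 0.18 without MEF 3), from 190.4 to 255 CPM in MEF wells to 95.8 to 149 CPM in basal wells. Neither gene's groups overlapped, and the exons of Timp3 overlap those of Syn3. Decorin (Dcn), a proteoglycan, had 231, 344 and 241 CPM against 302, 438, 1211 and 416 CPM, so that basal 2 lay above MEF 1. It fell by 0.87 ± 0.20 with all wells, but had -0.47 ± 0.15 (edgeR adjusted p = 0.147) without MEF 3. The collagen cross-linking enzyme Lox rose by 0.62 ± 0.12 without MEF 3, with 728 to 999 CPM in basal wells, 527 to 593 CPM in MEF 1, 2 and 4 and 1449 CPM in MEF 3, and its exons overlap those of AC161119.1.

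None of 15 collagen genes was called by edgeR, DESeq2 or voom in either fit. In each fit 2 had an unadjusted edgeR p under 0.05, against 664 of 6985 genes tested with all wells and 652 of 6926 without MEF 3. The collagen median was -0.16 with all wells (-0.17 without MEF 3), and 13 of 15 values were negative. Col1a1 had 426, 426 and 526 CPM in basal wells and 747, 517, 829 and 552 CPM in MEF wells, a value of -0.45 ± 0.14 that did not pass (edgeR adjusted p = 0.136). None of 18 smooth muscle contractile genes was called by these tools either, and 3 had an unadjusted p under 0.05 (2 without MEF 3). Their median was 0.23 (0.15 without MEF 3). Acta2, the smooth muscle actin of activated fibroblasts, had 2469, 2616 and 2999 CPM in basal wells and 2621, 1779, 1600.0 and 2457 CPM in MEF wells, which overlapped.

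**Figure D4:**
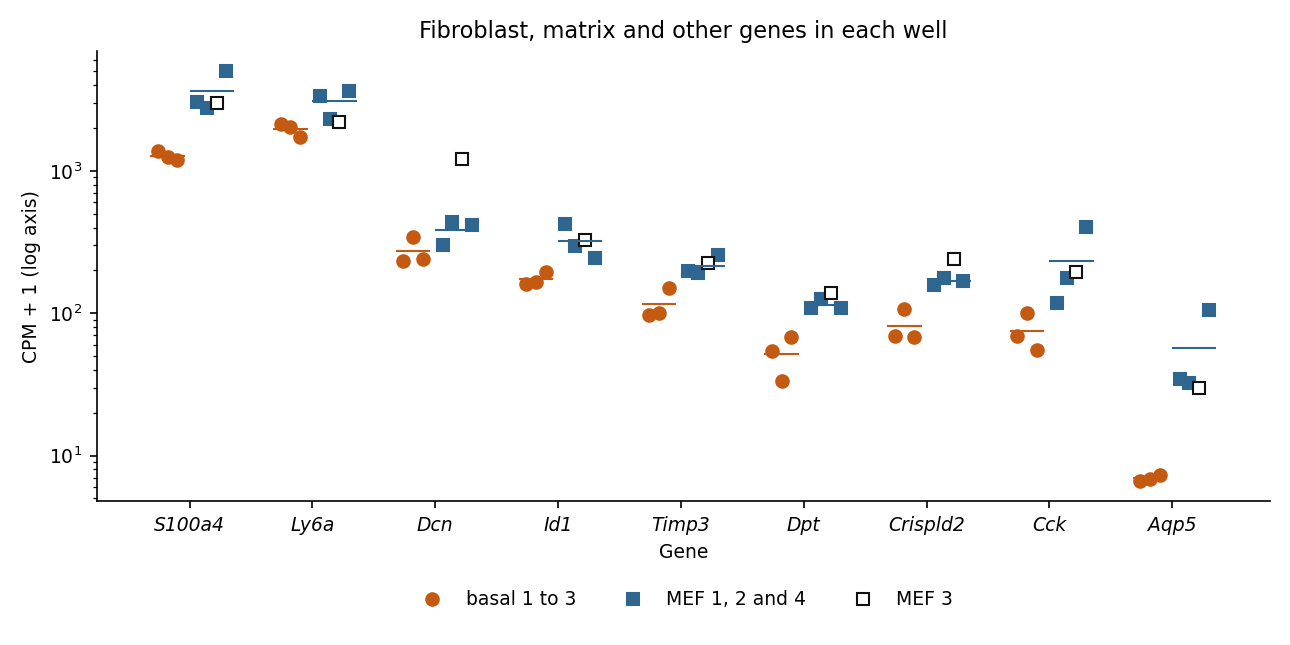
CPM + 1 on a log axis for 9 genes, most of them lower in basal wells, with basal wells as circles, MEF 1, 2 and 4 as filled squares and MEF 3 as an open square; lines are means of the basal wells and of MEF 1, 2 and 4. Every basal well is below every MEF well for each gene except Dcn, where basal 2 is above MEF 1.

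Signalling and transport genes gave few calls. Of 8 measured aquaporin and ion transport genes, 2 fell with all wells and 1 without MEF 3. Id1, a BMP-induced inhibitor of differentiation factors, had 161, 164 and 193 CPM in basal wells and 423, 296, 324 and 244 CPM in MEF wells, and fell by 0.87 ± 0.16 (-0.91 ± 0.17 without MEF 3). It was the only call among 9 BMP targets and antagonists, whose median was -0.49 (-0.38 without MEF 3). Its relative Id3 had -0.07 ± 0.12 and did not pass. Cck (chr9:121489824-121495694, minus strand), the gene of the peptide hormone cholecystokinin, had 67.7, 99.8 and 53.9 CPM against 116, 176, 195 and 405 CPM, and fell by 1.50 ± 0.27 (-1.54 ± 0.26 without MEF 3), with MEF 4 the highest well.

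The water channel Aqp5 (chr15:99590782-99594829, plus strand) had 5.64, 5.87 and 6.34 CPM in basal wells, which is 2 counts in each, and 33.5, 31.3, 28.8 and 104 CPM in MEF wells. It fell by 2.95 ± 0.62 (-3.05 ± 0.59 without MEF 3), and the call was lost when MEF 4, the highest well, was left out (-2.33). Aqp1 had 50.7, 20.6 and 34.9 CPM against 58.1, 131, 144 and 61.0 CPM, fell by 1.30 ± 0.32 with all wells, and had -1.20 ± 0.33 with an adjusted p of 0.0583 without MEF 3. The transporter Abcc5 (-2.02 ± 0.45) and Sat1, which acetylates polyamines (-2.33 ± 0.57), fell in both fits at 2.82 to 12.7 CPM in basal wells (-2.07 and -2.21 without MEF 3). Abcc5 had 2, 4 and 4 counts in basal wells, and a nocell well held 6 counts against a median of 5 over the 7 wells. Its call was lost when basal 1 or MEF 4 was left out, and that of Sat1 when basal 1, 2 or 3 or MEF 1 was left out. The part of nocell counts in these differences was not tested.

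The small heat shock protein Cryab fell by 1.05 ± 0.25 (-1.12 ± 0.26 without MEF 3), as the only call of 14 heat shock genes, and its exons overlap those of Hspb2. The secreted protein gene Crispld2 fell by 1.09 ± 0.22 (-1.04 ± 0.22 without MEF 3), from 157 to 238 CPM in MEF wells to 66.6 to 106 CPM in basal wells. Among the rises, the actin-binding peptide Tmsb10 had 2348, 1853 and 2061 CPM in basal wells against 1333, 1268, 1038 and 1173 CPM (0.83 ± 0.13, and 0.74 ± 0.13 without MEF 3), and Hn1 had 344, 479 and 279 CPM against 192, 207, 173 and 190.1 CPM (0.97 ± 0.17, and 0.92 ± 0.17 without MEF 3). Both were separate between the groups. Dhrs3, which turns retinaldehyde back to retinol, rose by 0.99 ± 0.21 (0.99 ± 0.22 without MEF 3) as the only call among 11 retinoid genes. Gm26924 fell by 1.69 ± 0.42 (-1.72 ± 0.38 without MEF 3), but 484 CPM in MEF 4 was below every basal well and 5528 CPM in MEF 2 above all others, so its groups overlapped.

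Other gene programmes showed no edgeR call in either fit: DNA replication (26 measured), mitosis (23), interferon response (11), p53 targets (18), TGF-beta targets (15), YAP targets (10), Wnt targets (14), ERK targets (9), immediate early genes (17), ATF4 and amino acid response (23), ER chaperones (19), lysosome and autophagy (33), FOXO and insulin signalling (16), cholesterol efflux (5), iron handling (7) and the mitochondrially encoded genes (8). With all wells, 0 to 3 genes of each of these lists had an unadjusted edgeR p under 0.05, except 8 lysosome genes. Over all 6985 genes tested, 664 had such a p. DESeq2 called the lysosomal membrane gene Lamp1 with all wells (-0.37, adjusted p = 0.0493), and both DESeq2 (-0.41, adjusted p = 0.0076) and voom called the lysosomal protease gene Ctsd without MEF 3, as did edgeR when scaled by library totals alone (-0.42, adjusted p = 0.0161); neither DESeq2 nor voom called a gene of the other lists. Across these lists the medians with all wells ran from -0.33 for TGF-beta targets to 0.04 for mitosis genes. Among the lysosome genes 24 of 33 values were negative, with a median of -0.13. Besides Fabp4, markers of other cell types gave calls for the neural progenitor gene Nes (1.08 ± 0.27, and 1.08 ± 0.29 without MEF 3) and, with all wells only, the endothelial gene Egfl7 (1.08 ± 0.27, and 0.97 ± 0.28 without MEF 3), while the endothelial cadherin Cdh5 had 2 counts over the basal wells and 0 over the MEF wells. Of 9 glucocorticoid targets, 1 rose with all wells (Angptl4) and 3 without MEF 3 (Angptl4, Lcn2 and Mt2), genes described above. Of the 67 genes called in either fit, 18 have exons that overlap another gene in the annotation, so their counts may not be separate. Besides those given above, Scd2, Etfb, Mt2, Tpi1, Tnfaip2 and Egfl7 are among them.

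**Figure D5:**
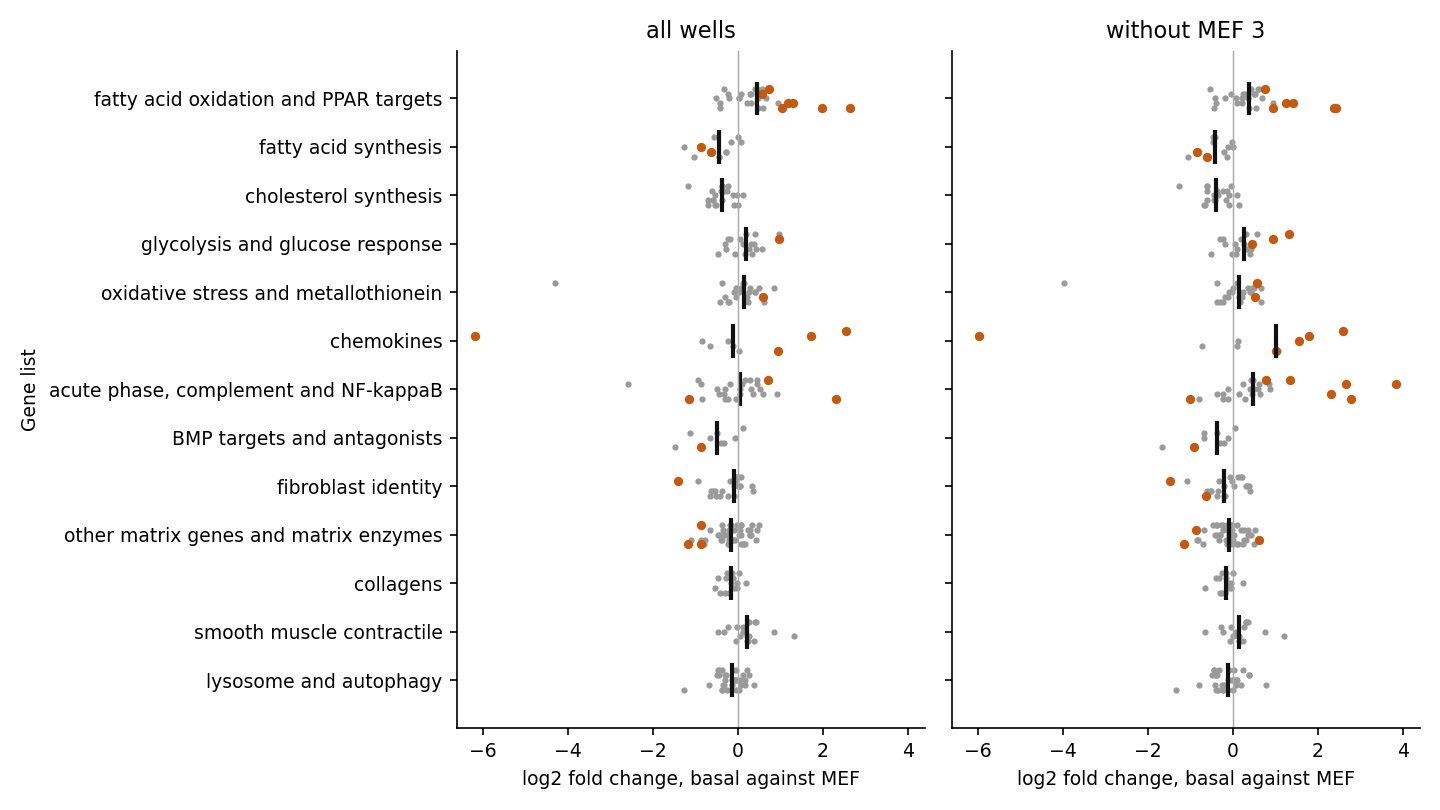
Log2 fold changes (basal against MEF) of the measured genes of 13 lists, with all wells on the left and without MEF 3 on the right; grey points are genes not called, orange points are called genes and black bars are list medians. Orange points lie right of 0 for fatty acid oxidation and left of 0 for fatty acid synthesis in both panels, and the acute phase list gains orange points on the right when MEF 3 is left out.

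Some calls were kept under every setting that gave the gene an adjusted p and with every single well left out. With all wells these were 14 genes: Angptl4, Ccl9, Cpt1a, Cxcl12, Fabp4, Hn1, Plin2, Rarres2 and Tmsb10, which rose, and Cck, Crispld2, Fasn, Id1 and S100a4, which fell. The other 34 calls were lost in at least 1 of these fits. Without MEF 3 the calls kept throughout were 19 genes, 15 of which rose, among them Saa3, Lcn2, Cxcl5, Serpina3g, Lox, Slc16a3 and Ech1, and the other 41 calls were lost in at least 1 fit. Calls lost there include Mt2 and Tpi1, with adjusted p of up to 0.217 and 0.29 when a further well was left out. Hn1, Cck, Crispld2 and Id1, kept throughout with all wells, were also lost there when a further well was left out. Their highest edgeR adjusted p was 0.0656, 0.0655, 0.06 and 0.0978.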

How the data were processed

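The table as deposited gives, for each gene and well, a count in whole numbers with no scaling by the authors. STAR was the aligner and mm10 the genome, per the submitters' processing notes. The sources used here name no STAR version, counting tool or annotation, and say nothing of strand or of molecular identifiers. The table had 20471 rows (26 with names turned into dates, 0 ERCC rows) and 274 well columns, of which 242 were not used here. Totals were 138747 to 447141 counts in the 7 wells compared. The 30 wells named for a medium on the plate were fitted together, and the contrast was basal minus MEF, with and without MEF 3. edgeR 4.0.16 (R 4.3.3) was run with trimmed mean scaling (TMM), a filterByExpr minimum of 10 counts, the quasi-likelihood test and Benjamini-Hochberg adjustment over every gene tested, and calls were made at an adjusted p below 0.05. The fit was tested on simulated counts with the same spread for every gene and no well set apart. Such data cannot show how the fit handles a well like MEF 3. Log2 fold changes have standard errors (SE) from edgeR's F statistic. Alternatives were RLE scaling, library totals, DESeq2 1.42.0, limma 3.58.1 voom with quality weights, other count filters, a replicate block, robust spread, fewer wells, and each well left out. For a gene at 0 in a group, the bound sets that group at 3 counts, which covers counting error only. Gene positions and exon overlaps come from GENCODE vM21, promoters from RefSeq on GRCm38.p6.

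Named genes were the 15 largest rises and falls among called genes averaging 10 CPM or more, up to 4 called members of each of 32 pathway lists, the 10 genes of smallest adjusted p called only without MEF 3, up to 3 uncalled members of each list, and the 10 genes in which MEF 3 was farthest from the other MEF wells. The text does not describe every gene that meets this rule, nor every other gene called in either fit. Among called genes left out are Wnt4 and Jup, which fell in both fits, and Mdk, Metrn and S100a16, which rose in both. Members and lists were chosen with earlier results of these data known. Genes named beyond this rule (Fabp3, Eci1, Pparg, Lamp1 and the marker genes) were picked after their values were seen.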

Additional observations from a re-analysis of the deposited data

Results flagged for a closer look

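Among 51 values checked over the 4 MEF wells, 13 had a highest or lowest well whose gap to the next, over the range, exceeded Dixon's 95% critical value for 4 samples. In 10 of the 13 the well was MEF 3. Chance flags about 1 in 20 groups of values picked at random, a rate that does not apply here, since several of these genes were named because their call changed when MEF 3 was left out.

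MEF 3 stood above the other 3 MEF wells with a mitochondrial share of 1.43% and, in CPM, with 12188 for Saa3, 3474 for Cxcl5, 1650.5 for Lcn2, 1449 for Lox, 1211 for Dcn, 1168 for Serpina3g, 721 for Angptl4, 159 for Hp and 129.7 for Mmd. MEF 4 stood above the others with 5010.3 CPM of S100a4 and 104 CPM of Aqp5. MEF 2 stood above the others with 912 CPM of Gpx3.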

How the results depend on the processing

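With all wells the count of called genes was 48, and 45 to 50 under RLE scaling, library totals, voom with quality weights, a minimum count of 30, robust spread or a replicate block. DESeq2 called 39, no count filter gave 63, the basal and MEF wells alone gave 27, and 76 were called without MEF 3 and bC8FAE 4. Leaving out single wells gave 25 to 62, with 25 without basal 1, 31 without basal 3 and 30 without MEF 4. Without MEF 3 the count was 60, 48 with DESeq2, and 76 also without bC8FAE 4. Leaving out a further well gave 37 to 67, with 39 without basal 1 and 37 without MEF 4. The cause was not tested. The difference in log2 totals ran from -0.068 without MEF 3 (exact p = 0.8) to 0.50 without MEF 1. Genes that were not called with all wells changed sign: Cxcl5 (1.05 with voom weights, 1.57 without MEF 3 and 1.57 also without bC8FAE 4), Lcn2 (2.16, 2.66 and 2.66) and Saa3 (3.12, 3.84 and 3.85). With single wells left out they ran from -1.30 to 1.57, -1.43 to 2.66 and -3.05 to 3.84. Mt2 ran from -0.064 without MEF 4 (-0.027 without MEF 1) to 0.58 without MEF 3. Saa3, uncalled with all wells (-2.59, edgeR adjusted p = 0.0868), was called lower without MEF 1, 2 or 4 (edgeR adjusted p = 0.0054 to 0.0093) and with no count filter (-2.54), but higher with voom weights (adjusted p = 3.1e-06). Lcn2 was also called higher with voom weights (adjusted p = 1.0e-05), and Cxcl5 lower with no count filter (-0.81). No gene called with all wells or without MEF 3 changed sign in any setting run on those wells. The labels do not say whether well numbers pair the wells. Deviations from the group means had r of -0.00052 to 0.037 for same-numbered wells and -0.031 to 0.052 for other pairs, with all wells. These ranges overlap and all values are near 0, so pairing cannot be told from them. The replicate block called 49 genes, and 62 without MEF 3. The totals of these wells limit what can be said of genes of low level.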

Other observations

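In 10 genes MEF 3 stood farthest from the other MEF wells, described here with no test. Of these, 4 were higher in MEF 3 (Saa3, Csf3, Lcn2 and Cxcl1) and 6 were at 0 counts in it (among them Mrpl55, Tbxa2r and Ppp2r5c), a well of low total. The cytokine gene Csf3, which drives neutrophil production, had 180.2 CPM in MEF 3, 0 to 4.47 CPM in the other MEF wells and 6.34 to 8.81 CPM in basal wells. The chemokine Cxcl1 had 108 CPM in MEF 3, 0 to 4.47 CPM in the other MEF wells and 5.64 to 11.7 CPM in basal wells. Both had too few counts to enter the gene test. The BMP antagonist Grem1 had 605 CPM in MEF 3, 62.5 to 147 CPM in the other MEF wells and 45.1 to 91.9 CPM in basal wells.

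The other medium well of low total, bC8FAE 4 with 119295 counts, shared some features of MEF 3: its mitochondrial share was 1.95% and its share of ribosomal protein RNA 13.3%. So did the wells named nocell 2 and 3, with totals of 4280 and 25308 counts. Their mitochondrial shares were 1.61% and 2.70%, and their shares of ribosomal protein RNA 14.8% and 12.5%. The part of such background counts in MEF 3 was not tested.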
